A study of Mus musculus with 9 samples.

Results

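The 41 genes described here belong to the p53 pathway and to the machinery of apoptosis, and were chosen by symbol from the 53379 rows of a count table of sorted mouse cortex cells. They are p53 itself (Trp53) with its regulators Mdm2 and Mdm4 (3 genes), 23 genes known as p53 targets, and 15 core apoptosis genes. The core genes are Bcl2 family members, caspases, proteins that act on caspases, and the mitochondrial protein Aifm1. Bax, Bbc3, Pmaip1 and Apaf1, which also act in apoptosis, were counted among the p53 targets. RNA came from the cortex of C57BL/6 mouse embryos that had been electroporated in utero at E13.5 and were collected at E15.5, where E counts days of embryonic development. All 3 groups carried a GFP label, and only GFP+ cells, taken by fluorescence sorting, were sequenced after selection of polyA RNA. The circSlc45a4 knockdown received 3 shRNAs (short hairpin RNAs, which mark a matching RNA for degradation) against a circular RNA of the Slc45a4 locus. The Slc45a4 mRNA knockdown received 2 shRNAs against the linear transcript of that locus, and scramble received 1 scrambled sequence. Each group held 3 libraries, which the series calls biological replicates. The shRNAs of a group were given as a mix, so an effect of 1 shRNA and of the other members of its mix cannot be told apart. Neither the number of embryos in a library nor the promoter that drives the shRNA is given in the sources used here.

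p53 is a transcription factor that Mdm2 and Mdm4 hold in check, Mdm2 by marking it for degradation. When DNA is damaged or division is delayed, p53 accumulates and turns on genes that stop the cell cycle, repair DNA or start apoptosis. In apoptosis, Bcl2 and its relatives guard the outer mitochondrial membrane, Bax and Bak1 permeabilise it, BH3-only proteins such as Bbc3, Pmaip1, Bid and Bcl2l11 tip the balance, and released cytochrome c assembles with Apaf1 into the complex that activates Casp9. In the embryonic cortex this route is known for removing progenitors with damaged DNA or a prolonged mitosis.

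p53 binds DNA at a pair of half-sites, each of which is known by the name p53 half-site. Promoter windows of 300 bases (250 before and 50 after a transcription start, RefSeq, GRCm38.p6) were available for 33 of the 41 members. The half-site, which reads alike on both strands, was found in at least 1 window of 8 members: Aen, Bax, Ccng1, Gtse1, Mdm2, Polk, Sesn1 and Trp53. It was in 9 of the 25 windows of p53 pathway members (36.0%) and 0 of the 21 windows of core apoptosis genes, against 2745 of all 32851 windows (8.36%). The windows of Aen overlap and hold the same half-site, and each is counted among the 9. A full site, with the pair of half-sites adjoining or a short spacer between, was in none of the members' windows and in 0.0731% of all windows. The windows of 5 of these members are given 5′ to 3′ on the gene's own strand, with the half-site in capitals, because their transcripts took different courses in the same libraries: Ccng1 and Aen were lower in the Slc45a4 mRNA knockdown, Polk was higher there, and neither Mdm2 nor Bax passed the test in any comparison. The Polk window is that of a second, downstream start, and the window of its other start held no half-site.
Mdm2 (chr10:117710709-117711008, minus strand): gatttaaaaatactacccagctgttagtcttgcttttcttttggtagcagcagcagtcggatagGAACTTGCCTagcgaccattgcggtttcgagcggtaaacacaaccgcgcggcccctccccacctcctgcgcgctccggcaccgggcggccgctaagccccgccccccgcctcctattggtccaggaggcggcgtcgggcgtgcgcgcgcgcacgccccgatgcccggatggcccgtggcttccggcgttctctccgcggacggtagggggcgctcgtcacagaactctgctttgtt
Ccng1 (chr11:40755237-40755536, minus strand): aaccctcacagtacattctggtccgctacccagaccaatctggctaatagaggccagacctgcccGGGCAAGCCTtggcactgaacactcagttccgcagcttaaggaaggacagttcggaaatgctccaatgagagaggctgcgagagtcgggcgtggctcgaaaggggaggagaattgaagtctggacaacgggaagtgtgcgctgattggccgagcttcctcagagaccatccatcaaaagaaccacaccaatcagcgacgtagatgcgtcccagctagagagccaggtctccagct
Aen (chr7:78895677-78895976, plus strand): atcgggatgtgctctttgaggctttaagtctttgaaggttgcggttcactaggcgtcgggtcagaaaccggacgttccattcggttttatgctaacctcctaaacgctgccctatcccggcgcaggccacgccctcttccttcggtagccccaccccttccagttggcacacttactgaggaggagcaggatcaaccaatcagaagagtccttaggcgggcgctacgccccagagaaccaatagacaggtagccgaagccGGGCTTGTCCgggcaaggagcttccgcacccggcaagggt
Bax (chr7:45466849-45467148, minus strand): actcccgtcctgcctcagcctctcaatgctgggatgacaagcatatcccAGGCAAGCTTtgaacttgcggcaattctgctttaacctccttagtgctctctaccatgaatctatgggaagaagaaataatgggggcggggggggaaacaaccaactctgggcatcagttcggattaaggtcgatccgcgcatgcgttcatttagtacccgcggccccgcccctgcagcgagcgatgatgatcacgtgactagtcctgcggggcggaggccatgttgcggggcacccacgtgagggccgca
Polk (chr13:96519138-96519437, minus strand): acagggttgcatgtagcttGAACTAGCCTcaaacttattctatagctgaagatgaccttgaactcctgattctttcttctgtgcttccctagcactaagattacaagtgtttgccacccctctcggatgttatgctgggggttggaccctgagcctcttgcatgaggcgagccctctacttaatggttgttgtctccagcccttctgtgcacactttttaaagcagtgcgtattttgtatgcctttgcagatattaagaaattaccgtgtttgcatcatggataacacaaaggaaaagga
A match is a description of these letters only, and a full site or a half-site outside the windows was not searched.

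The count table held between 21073174 and 45469298 counts per library, and scramble replicate 1 was the shallowest. Levels are given in the unit CPM, each gene's counts scaled to its library's total. Of the targeted transcript, Slc45a4 (a member of the SLC45 transporter family), scramble libraries held 31.4, 33.6 and 34.0 CPM, the circSlc45a4 knockdown 25.4, 25.3 and 24.7 CPM, and the Slc45a4 mRNA knockdown 13.3, 18.5 and 17.4 CPM. By edgeR's quasi-likelihood test it was lower in both. The log2 fold changes were -0.39 in the circSlc45a4 knockdown (adjusted p = 0.0245) and -1.01 in the Slc45a4 mRNA knockdown (adjusted p = 1.08e-04). The first of these calls was lost in 6 of 19 alternative fits. The circular RNA has no polyA tail and its level was not read. Markers of projection neurons summed to 4434 to 6034 CPM per library and those of apical progenitors to 778 to 1466 CPM. RNA of these cell types was thus present in every library. The projection neuron sums were 4706 to 4874 CPM in the circSlc45a4 knockdown and 4434 to 4858 CPM in the Slc45a4 mRNA knockdown, against 5177 to 6034 CPM in scramble. Of these 8 markers, 1 was higher and 1 lower in the circSlc45a4 knockdown (27.1% of all genes were called). In the Slc45a4 mRNA knockdown 0 were higher and 2 lower (18% of all genes). Summed markers of microglia (2.32 to 11.1 CPM), endothelium (1.25 to 5.13 CPM), pericytes (2.01 to 5.90 CPM), meningeal fibroblasts (0.620 to 1.77 CPM), ventral inhibitory neurons (1.53 to 6.92 CPM) and erythroid cells (6.31 to 22.3 CPM) stood far lower, with no listed gene at 0 in all 9 libraries. Of 7 measured microglial markers, 2 were higher in the circSlc45a4 knockdown, where they summed to 6.44 to 11.1 CPM against 2.32 to 4.11 CPM in scramble. Of 8 apical progenitor markers, 6 were higher in the circSlc45a4 knockdown and 2 in the Slc45a4 mRNA knockdown, and none was lower. Of 6 basal progenitor markers 3 were lower in the circSlc45a4 knockdown and 2 in the Slc45a4 mRNA knockdown, and of 5 measured markers of ventral inhibitory neurons 3 were lower in the circSlc45a4 knockdown (median log2 fold change -1.54, summed to 1.53 to 2.68 CPM against 3.06 to 6.92 CPM in scramble). Of 4 measured erythroid markers 2 were higher in the circSlc45a4 knockdown than in the Slc45a4 mRNA knockdown. The part of these cell types in the members' values was not tested. The libraries differed in the sex of their embryos. Xist, which is made in female cells, ranged from 264 to 635 CPM in the circSlc45a4 knockdown, read 1550, 637 and 0.194 CPM in the Slc45a4 mRNA libraries, and did not exceed 0.239 CPM in scramble. A list of 15 interferon response genes summed to 98.8 CPM in replicate 1 of the circSlc45a4 knockdown and to 141.3 CPM in replicate 1 of the Slc45a4 mRNA knockdown, against 47.6 to 68.3 CPM in the other 7 libraries. Of the 14 measured, 5 were higher and 0 lower in the Slc45a4 mRNA knockdown (median log2 fold change 1.87), where 18% of all genes were called. None was called in the circSlc45a4 knockdown (median 0.94). The mean log2(CPM + 0.5) of the list was 1.52 and 1.22 in replicates 2 and 3 of the Slc45a4 mRNA knockdown, against 0.58 to 0.92 in scramble. The part of this response in the members' values was not tested. Fewer cells of a type and less RNA per cell cannot be told apart in these bulk samples.

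Of the 41 members, 40 passed the filter on low counts. Fas, a death receptor, did not. It stood at 0, 0 and 0.0617 CPM in scramble, 0.134, 0 and 0.112 CPM in the circSlc45a4 knockdown and 0.0279, 0.0809 and 0 CPM in the Slc45a4 mRNA knockdown, where 3 counts are worth between 0.0671 and 0.143 CPM, so no difference was detectable at this depth. Levels of different genes were compared per kilobase of exon in scramble. Mcl1, a Bcl2 relative that protects cells, was the highest at 57.4 ± 0.976 CPM per kilobase (SD, n = 3), followed by Bax at 37.4 ± 0.318. Trp53inp1, Sesn1, Mdm2 and Trp53 came next at 25.4 ± 1.07, 23.6 ± 0.832, 21.2 ± 1.82 and 20.5 ± 1.49 CPM per kilobase, and the means of the last pair lay within 1 SD of each other. The lowest measured members were Tnfrsf10b at 0.192 ± 0.0468, Zfp365 at 0.293 ± 0.0697 and Pmaip1 at 0.356 ± 0.115 CPM per kilobase. Bcl2 itself stood at 1.58 ± 0.386 CPM per kilobase, well below Mcl1.

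In the circSlc45a4 knockdown against scramble, 10 of the 40 measured members passed an adjusted p of 0.05 (edgeR's quasi-likelihood test, Benjamini-Hochberg over all 17760 genes), where 27.1% of all genes did. The 5 that were higher were Zmat3, Apaf1, Bcl2, Bak1 and Bok, and the 5 that were lower were Plk2, Aen, Ddb2, Xiap and Bid. In the Slc45a4 mRNA knockdown against scramble, 14 members passed, against 18% of all genes (8.92% higher and 9.09% lower). The 8 higher ones were Plk2, Zmat3, Eda2r, Apaf1, Polk, Bcl2, Bak1 and Bok, and the 6 lower ones were Ccng1, Trp53inp1, Aen, Xiap, Casp9 and Diablo. In the direct comparison of the knockdowns 14 members passed, 7 in each direction, against 26.1% of all genes. Groups did not overlap for 17 members in the first comparison (43.9% of all genes), 19 in the second (36.1%) and 20 in the direct comparison (40.1%). The comparisons with scramble share its 3 libraries, so their values are set side by side and not counted as agreement. With the log2 level of Xist added as a term, 4 members passed in the circSlc45a4 knockdown (6.75% of all genes), all higher, namely Zmat3, Apaf1, Bcl2 and Bak1. In the Slc45a4 mRNA knockdown 7 passed (4.16% of all genes), namely Ccng1, Plk2, Aen, Apaf1, Xiap, Bak1 and Bok. In the direct comparison 15 passed with that term (24.1%).

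**Figure D1:**
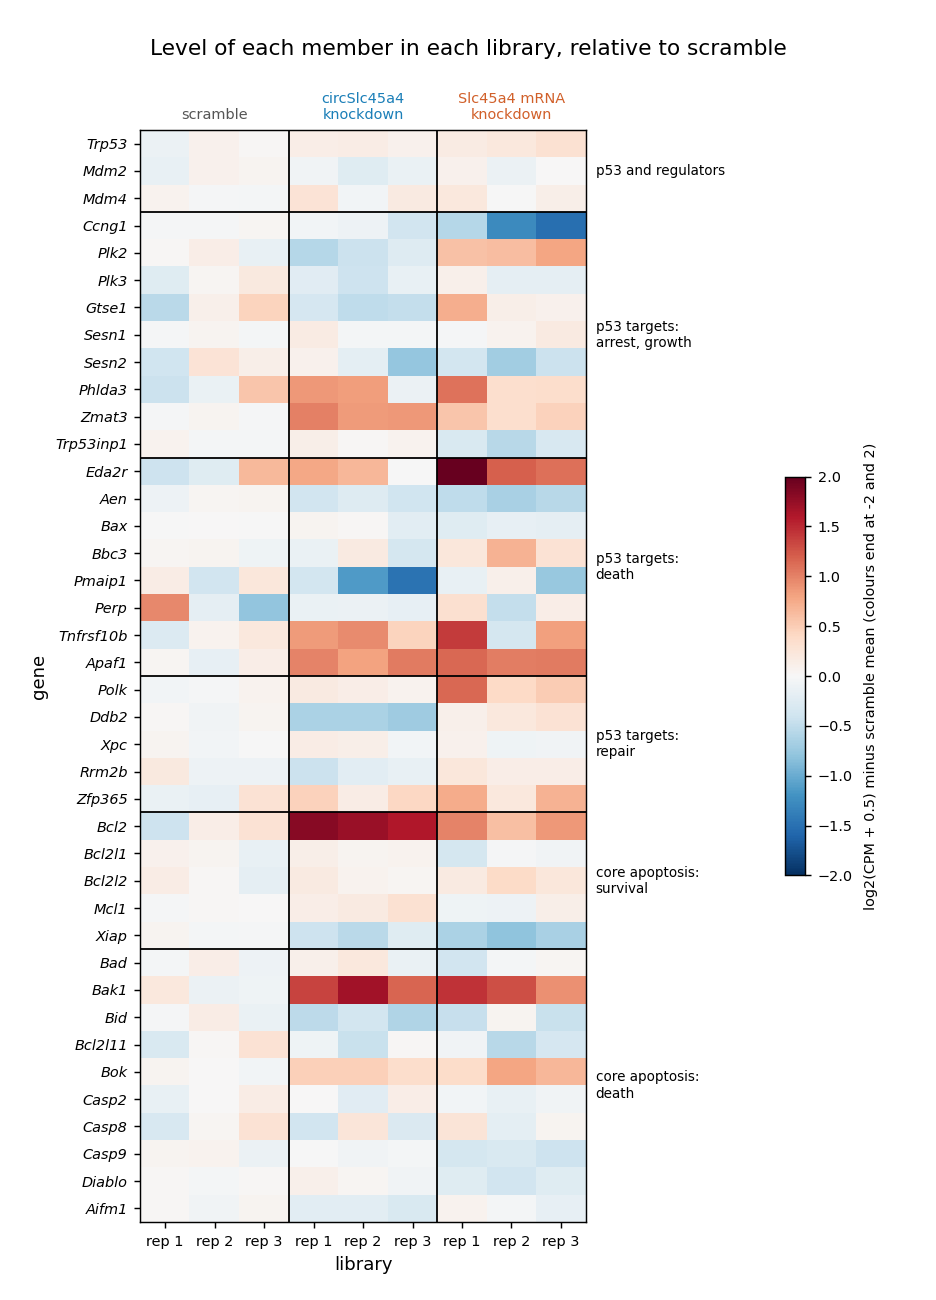
Heat map of the 40 measured members (rows, grouped by role) in the 9 libraries (columns), as log2(CPM + 0.5) minus the mean of the scramble libraries, with red higher and blue lower. Bcl2, Bak1 and Apaf1 were above the scramble mean in all 6 knockdown libraries, Xiap and Aen were below it in all 6, and Plk2 was below it in the circSlc45a4 knockdown and above it in the Slc45a4 mRNA knockdown.

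**Figure D2:**
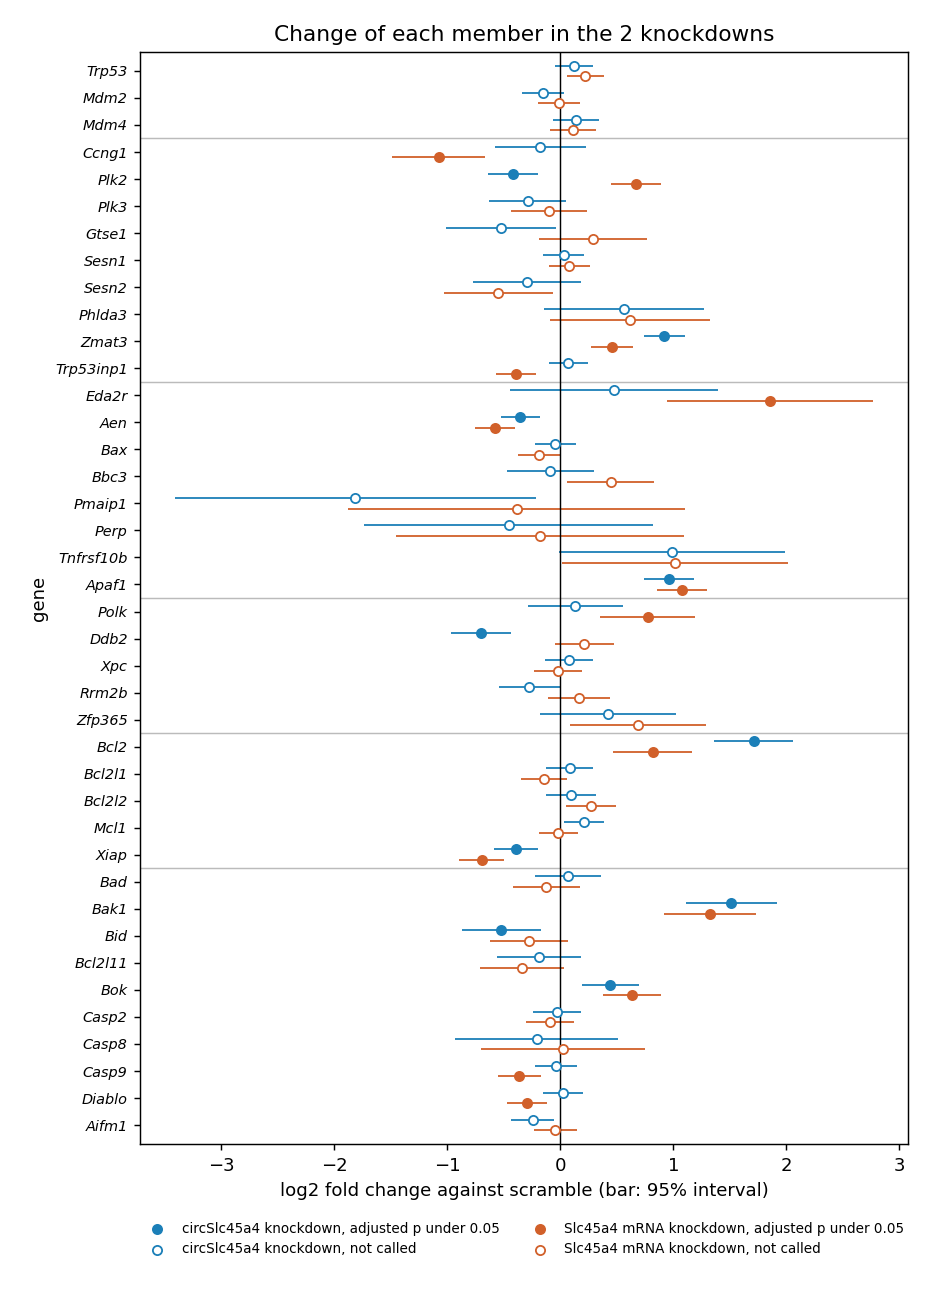
Log2 fold change of each measured member against scramble in the circSlc45a4 knockdown (blue) and the Slc45a4 mRNA knockdown (orange), with 95% intervals and filled points for adjusted p under 0.05. Bcl2 had the highest value in the circSlc45a4 knockdown (1.71) and Eda2r in the Slc45a4 mRNA knockdown (1.85), where its interval ran from 0.94 to 2.77 and its value was 1.17 without replicate 1.

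p53 and its regulators did not pass the test in any comparison. Trp53 (ENSMUSG00000059552.13, chromosome 11, positions 69580359 to 69591873, plus strand, GRCm38) stood at 76.5, 88.4 and 84.3 CPM in scramble, 91.4, 91.6 and 88.5 CPM in the circSlc45a4 knockdown and 92.5, 96.1 and 102 CPM in the Slc45a4 mRNA knockdown. The knockdown libraries all lay above those of scramble, by a small margin. The log2 fold changes were 0.12 ± 0.08 (SE, adjusted p = 0.268) and 0.22 ± 0.08 (adjusted p = 0.0649). Without replicate 1 of the Slc45a4 mRNA knockdown the second reached 0.26 (adjusted p = 0.0484). Mdm2 (ENSMUSG00000020184.15, chromosome 10, positions 117688875 to 117710758, minus strand), which is both the main inhibitor of p53 and one of its targets, stood at 97.2, 114 and 112 CPM in scramble, 102, 90.8 and 98.5 CPM in the circSlc45a4 knockdown and 114, 99.4 and 108 CPM in the Slc45a4 mRNA knockdown. Its groups overlapped in all 3 comparisons, and the 95% intervals of its log2 fold changes ran from -0.34 to 0.03 and from -0.20 to 0.18. Mdm4, an Mdm2 relative that silences p53, changed by 0.14 and 0.11 on the log2 scale with overlapping groups. Of these 3 genes, edgeR's quasi-likelihood test gave an unadjusted p under 0.05 for 0 in the circSlc45a4 knockdown, for 1 (Trp53) in the Slc45a4 mRNA knockdown and for 0 in the direct comparison, and neither DESeq2 nor limma-voom called any of them.

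Among the 9 p53 targets that act on the cell cycle and growth, Plk2, Zmat3, Ccng1 and Trp53inp1 were called against scramble, and they did not share a direction. Gtse1 was called in the direct comparison only. Plk2 (ENSMUSG00000021701.8, chromosome 13, positions 110395046 to 110400844, plus strand), a polo-like kinase that is also induced by neuronal activity, stood at 61.4, 66.2 and 54.4 CPM in scramble, 40.4, 44.9 and 50.5 CPM in the circSlc45a4 knockdown and 90.8, 93.3 and 105 CPM in the Slc45a4 mRNA knockdown. The 3 groups did not overlap, with scramble in the middle. Plk2 fell by 0.42 ± 0.10 on the log2 scale in the circSlc45a4 knockdown (adjusted p = 0.00844) and rose by 0.67 ± 0.10 in the Slc45a4 mRNA knockdown (adjusted p = 7.25e-04). The direct difference was -1.09 ± 0.10 (adjusted p = 1.48e-05), a 2.13-fold lower level in the circSlc45a4 knockdown. Its fall against scramble did not pass without scramble replicate 2 (-0.35, adjusted p = 0.0533) or with the Xist term (-0.25, adjusted p = 0.449).

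Zmat3 (ENSMUSG00000027663.12, chromosome 3, positions 32334792 to 32366014, minus strand), an RNA-binding protein and p53 target, stood at 40.4, 42.5 and 40.4 CPM in scramble, 83.4, 74.8 and 75.4 CPM in the circSlc45a4 knockdown and 60.6, 52.1 and 56.9 CPM in the Slc45a4 mRNA knockdown. All 3 groups were apart, with the circSlc45a4 knockdown the highest. The log2 fold changes against scramble were 0.92 ± 0.09 (adjusted p = 7.44e-06) and 0.46 ± 0.09 (adjusted p = 0.00252, and 0.0728 with the Xist term), and the direct difference was 0.46 ± 0.08 (adjusted p = 0.00148). Ccng1 (ENSMUSG00000020326.7, chromosome 11, positions 40748552 to 40755311, minus strand), which encodes cyclin G1, stood at 41.2, 41.5 and 43.3 CPM in scramble, 40.6, 39.0 and 32.1 CPM in the circSlc45a4 knockdown and 28.2, 17.1 and 14.5 CPM in the Slc45a4 mRNA knockdown. The libraries of the Slc45a4 mRNA knockdown were all lower than every other library. The level there fell by 1.08 ± 0.19 on the log2 scale (adjusted p = 0.00181), while the change in the circSlc45a4 knockdown was -0.18 ± 0.19 (adjusted p = 0.526) and the direct difference 0.90 ± 0.19 (adjusted p = 0.00375). Trp53inp1, a nuclear and autophagy protein induced by p53, was also lowest in the Slc45a4 mRNA knockdown. It stood at 173, 160.3 and 161 CPM in scramble, 179, 166 and 173 CPM in the circSlc45a4 knockdown and 133, 112 and 131 CPM in the Slc45a4 mRNA knockdown, where it fell by 0.39 ± 0.08 (adjusted p = 0.00485, and 0.159 with the Xist term). The direct difference was 0.46 ± 0.08 (adjusted p = 0.00114).

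Gtse1, a microtubule-associated protein of G2 and M phase that shuttles p53 out of the nucleus, stood at 11.3, 18.0 and 22.9 CPM in scramble, 13.1, 11.6 and 11.8 CPM in the circSlc45a4 knockdown and 28.1, 18.3 and 17.7 CPM in the Slc45a4 mRNA knockdown. The knockdowns did not overlap each other and both overlapped scramble. The change in the circSlc45a4 knockdown was -0.53 (adjusted p = 0.101), and -0.75 without scramble replicate 1 (adjusted p = 0.0127). With no filter it passed too (-0.53, adjusted p = 0.00212). The direct difference was -0.81 ± 0.22 (adjusted p = 0.0167). It did not pass without replicate 2 of the circSlc45a4 knockdown (-0.77, adjusted p = 0.0642) or replicate 1 of the Slc45a4 mRNA knockdown (-0.57, adjusted p = 0.071). Of 15 G2 and M phase genes listed beside the members, 12 were lower in this direct comparison and none higher, with a median log2 fold change of -0.83, and their part in the Gtse1 value was not tested. Plk3, Sesn1, Sesn2 and Phlda3 were not called. Sesn2, a stress-induced regulator of mTORC1, changed by -0.55 in the Slc45a4 mRNA knockdown (adjusted p = 0.11). It passed there without scramble replicate 1 (-0.72, adjusted p = 0.0468) and with no filter (-0.55, adjusted p = 0.00955). Phlda3, an inhibitor of Akt at the membrane, ranged over 3.20 to 6.82 CPM in scramble, 4.07 to 8.59 CPM in the circSlc45a4 knockdown and 5.80 to 10.1 CPM in the Slc45a4 mRNA knockdown. With no filter it passed in both comparisons with scramble (0.56 and 0.61, adjusted p = 0.0301 and 0.0214).

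Of the p53 targets that act in cell death, Apaf1 was higher in both knockdowns and Aen lower in both, while Eda2r was higher in the Slc45a4 mRNA knockdown. Apaf1 (ENSMUSG00000019979.12, chromosome 10, positions 90989311 to 91082770, minus strand), the scaffold of the apoptosome, stood at 27.0, 23.5 and 28.9 CPM in scramble, 53.1, 46.2 and 54.9 CPM in the circSlc45a4 knockdown and 58.9, 53.8 and 54.8 CPM in the Slc45a4 mRNA knockdown. All 6 knockdown libraries lay above all scramble libraries, and the knockdowns overlapped each other. The log2 fold changes were 0.96 ± 0.10 (1.94-fold, adjusted p = 2.25e-05) and 1.08 ± 0.10 (2.11-fold, adjusted p = 1.92e-05), and the direct difference was -0.12 with a 95% interval from -0.33 to 0.09. Aen (ENSMUSG00000030609.18, chromosome 7, positions 78895854 to 78911209, plus strand), a nuclease that enhances apoptosis, stood at 77.3, 84.8 and 86.4 CPM in scramble, 63.5, 68.8 and 62.4 CPM in the circSlc45a4 knockdown and 57.9, 52.4 and 56.2 CPM in the Slc45a4 mRNA knockdown. No library of either knockdown reached the level of scramble. Aen fell by 0.35 ± 0.08 (adjusted p = 0.00552, and 0.232 with the Xist term) and by 0.58 ± 0.08 (adjusted p = 3.63e-04). The direct difference of 0.23 (adjusted p = 0.055) passed with the DESeq2 Wald test (0.23, adjusted p = 0.03), with the size factors of DESeq2 (0.24, adjusted p = 0.0446) and without replicate 1 of the Slc45a4 mRNA knockdown (0.26, adjusted p = 0.0477).

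Eda2r (ENSMUSG00000034457.10, chromosome X, positions 97333840 to 97377216, minus strand), a receptor of the tumour necrosis factor family, stood at 2.10, 2.43 and 4.91 CPM in scramble, 5.41, 4.97 and 2.95 CPM in the circSlc45a4 knockdown and 20.3, 7.39 and 6.95 CPM in the Slc45a4 mRNA knockdown. Replicate 1 of the Slc45a4 mRNA knockdown, the library with the highest interferon gene sum and the highest Xist level, stood well above the other 8 libraries. Eda2r rose by 1.85 ± 0.42 there against scramble (adjusted p = 0.00871), a value that was 1.17 and still passed without that library. It did not pass with the Xist term (1.03, adjusted p = 0.354) or without scramble replicate 2 (1.68, adjusted p = 0.0525). The direct difference of -1.38 ± 0.41 (adjusted p = 0.0236) did not pass without replicate 1 of the Slc45a4 mRNA knockdown (-0.69, adjusted p = 0.146), or without replicate 2 (-1.45, adjusted p = 0.0596) or replicate 3 (-1.15, adjusted p = 0.0841) of the circSlc45a4 knockdown.

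Bbc3, known as Puma, is a BH3-only protein induced by p53. It stood at 8.13, 8.23 and 7.47 CPM in scramble, 7.22, 9.10 and 6.10 CPM in the circSlc45a4 knockdown and 9.32, 13.2 and 9.86 CPM in the Slc45a4 mRNA knockdown. The knockdowns did not overlap each other, with the Slc45a4 mRNA knockdown higher, and the direct difference was -0.53 ± 0.17 (adjusted p = 0.0386). Leaving out any 1 of 5 libraries ended this call: replicate 1 (-0.50, adjusted p = 0.115) or 3 (-0.41, adjusted p = 0.136) of the circSlc45a4 knockdown, replicate 2 (-0.36, adjusted p = 0.179) or 3 (-0.59, adjusted p = 0.0542) of the Slc45a4 mRNA knockdown, or scramble replicate 2 (-0.53, adjusted p = 0.0598). The Bbc3 call also ended with only the 6 libraries compared (-0.54, adjusted p = 0.059) and without both libraries of high interferon level (-0.61, adjusted p = 0.0737). Bax, the best-known death effector among p53 targets, was not called: its log2 fold changes were -0.04 and -0.19, with 95% intervals from -0.23 to 0.14 and from -0.38 to -0.01. Pmaip1, known as Noxa, stood at 1.10, 0.616 and 1.20 CPM in scramble, 0.626, 0.164 and 0.0224 CPM in the circSlc45a4 knockdown and 0.809, 1.05 and 0.360 CPM in the Slc45a4 mRNA knockdown. Replicate 3 of the circSlc45a4 knockdown held 1 count of it, and the difference from scramble did not pass with edgeR (adjusted p = 0.0873) and passed with the DESeq2 Wald test (adjusted p = 0.046), limma-voom (adjusted p = 0.0325) and no filter (adjusted p = 0.0056). Both that difference and the direct one (adjusted p = 0.176) passed without replicate 1 of the circSlc45a4 knockdown (adjusted p = 0.0105 and 0.0223). Perp and the death receptor Tnfrsf10b were low, at 0.278 to 2.10 CPM and 0.701 to 3.54 CPM over the 9 libraries, and were not called. Without replicate 2 of the Slc45a4 mRNA knockdown Tnfrsf10b passed in both comparisons with scramble (0.99 and 1.43, adjusted p = 0.0369 and 0.0155), as it did with no filter (0.99 and 1.01, adjusted p = 0.0232 and 0.0263).

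The p53 targets of DNA repair and nucleotide supply differed mainly between the knockdowns. Ddb2 (ENSMUSG00000002109.14, chromosome 2, positions 91211572 to 91236982, minus strand), which recognises ultraviolet damage, stood at 10.8, 10.1 and 11.0 CPM in scramble, 6.69, 6.64 and 6.30 CPM in the circSlc45a4 knockdown and 11.5, 12.3 and 13.1 CPM in the Slc45a4 mRNA knockdown. The circSlc45a4 knockdown was the lowest group, without overlap. Ddb2 fell there by 0.70 ± 0.12 (adjusted p = 0.00101, and 0.145 with the Xist term), and the direct difference was -0.91 ± 0.12 (adjusted p = 1.78e-04). The exons of Acp2 on the opposite strand cover 23.8% of the exon bases of Ddb2, and the strand setting of the counts is not given, so reads of this pair cannot be told apart there.

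Polk, a translesion DNA polymerase, stood at 5.26, 5.38 and 5.74 CPM in scramble, 6.22, 6.01 and 5.74 CPM in the circSlc45a4 knockdown and 12.7, 7.36 and 7.98 CPM in the Slc45a4 mRNA knockdown. As for Eda2r, replicate 1 of the Slc45a4 mRNA knockdown stood above the rest. The rise of 0.77 ± 0.20 against scramble (adjusted p = 0.0153) became 0.49 with the Xist term (adjusted p = 0.389), 0.49 without that library (adjusted p = 0.051) and 0.76 without scramble replicate 2 (adjusted p = 0.0603). The direct difference of -0.64 ± 0.19 (adjusted p = 0.0253) became -0.36 without that library (adjusted p = 0.118), and leaving out replicate 1, 2 or 3 of the circSlc45a4 knockdown ended it too (-0.66, -0.63 and -0.61, adjusted p = 0.0615, 0.0667 and 0.068). Rrm2b, the p53-inducible subunit of ribonucleotide reductase, stood at 17.9, 14.4 and 14.4 CPM in scramble, 11.3, 13.3 and 13.9 CPM in the circSlc45a4 knockdown and 18.2, 17.0 and 16.9 CPM in the Slc45a4 mRNA knockdown. Its knockdown groups did not overlap, with a direct difference of -0.44 ± 0.12 (adjusted p = 0.0201). That did not pass without replicate 1 of the circSlc45a4 knockdown (-0.35, adjusted p = 0.0963) or replicate 1 of the Slc45a4 mRNA knockdown (-0.40, adjusted p = 0.0506). All 15 listed S phase genes were lower in the same direct comparison (median -0.82), and against scramble 12 of them were lower in the circSlc45a4 knockdown (median -0.53). Their part in the values of the repair genes was not tested. Xpc, a damage sensor of nucleotide excision repair, and Zfp365 were not called in any comparison.

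**Figure D3:**
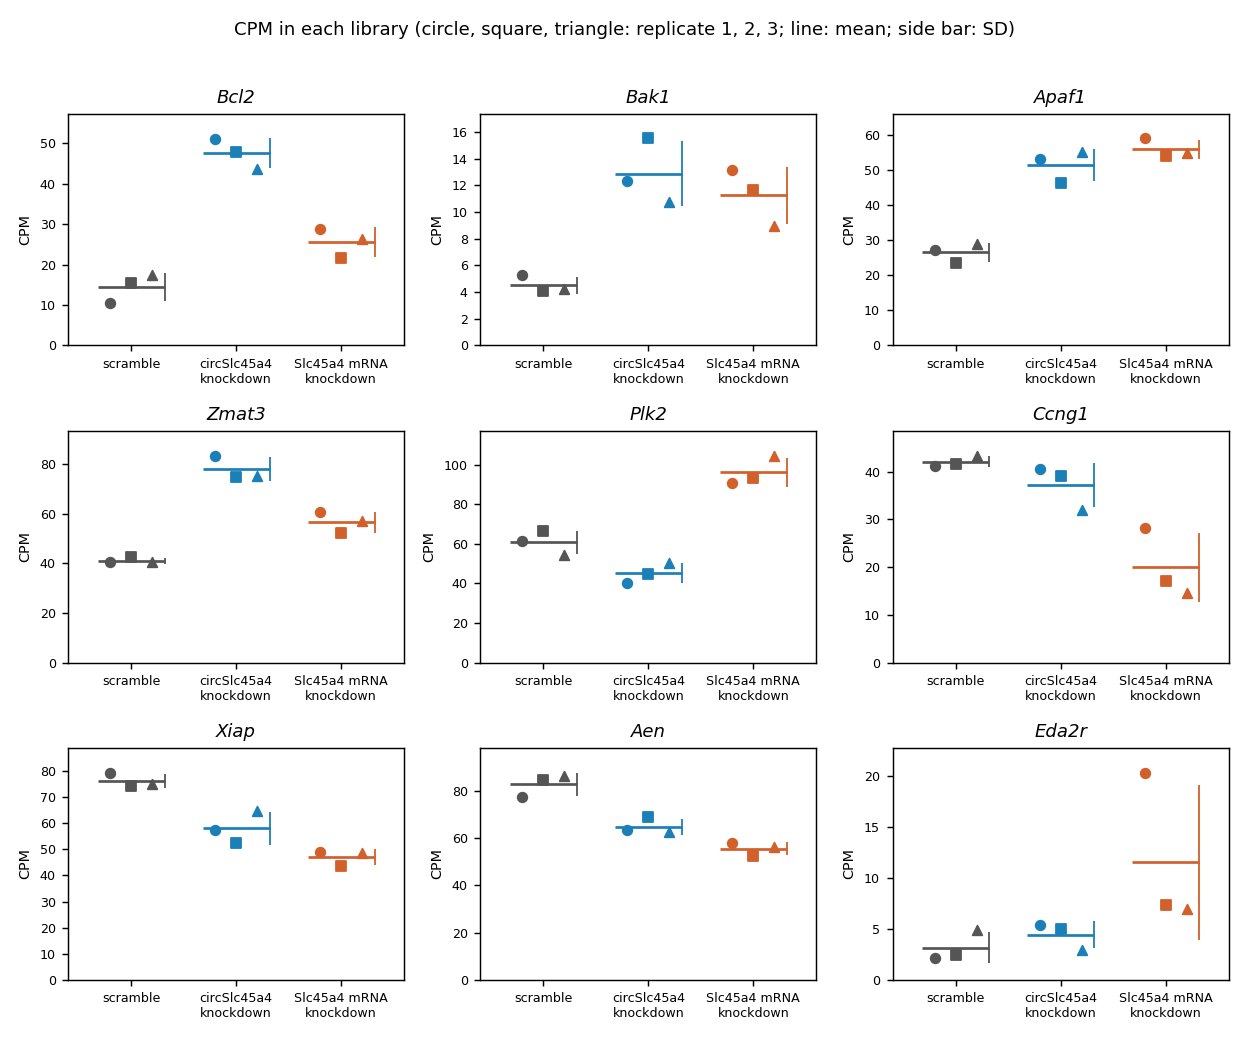
CPM of 9 members in each library, with the mean (line) and SD (side bar) of each group of 3. Bcl2, Bak1, Apaf1 and Zmat3 were higher in both knockdowns, Xiap and Aen were lower in both, Plk2 lay on opposite sides of scramble, and 1 library of the Slc45a4 mRNA knockdown held Eda2r at 20.3 CPM.

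Among the core apoptosis genes that promote survival, Bcl2 rose and Xiap fell in both knockdowns. Bcl2 (ENSMUSG00000057329.7, chromosome 1, positions 106538178 to 106714274, minus strand), the founding inhibitor of mitochondrial apoptosis, stood at 10.5, 15.49 and 17.4 CPM in scramble, 51.1, 47.9 and 43.8 CPM in the circSlc45a4 knockdown and 28.8, 21.7 and 26.3 CPM in the Slc45a4 mRNA knockdown. The 3 groups did not overlap, and the circSlc45a4 knockdown stood the highest. Bcl2 rose by 1.71 ± 0.16 (3.27-fold, adjusted p = 9.10e-06) in the circSlc45a4 knockdown and by 0.82 ± 0.16 (1.76-fold, adjusted p = 0.00374, and 0.0581 with the Xist term) in the Slc45a4 mRNA knockdown, and the direct difference was 0.89 ± 0.16 (adjusted p = 0.00111). An antisense gene shares 6.09% of its exon bases. Xiap (ENSMUSG00000025860.15, chromosome X, positions 42059679 to 42109656, plus strand), which blocks caspases, stood at 79.4, 74.2 and 75.1 CPM in scramble, 57.3, 52.3 and 64.6 CPM in the circSlc45a4 knockdown and 49.0, 43.5 and 48.5 CPM in the Slc45a4 mRNA knockdown. Scramble was the highest group, without overlap. Xiap fell by 0.39 ± 0.09 (adjusted p = 0.00648, and 0.228 with the Xist term) and by 0.70 ± 0.09 (adjusted p = 2.35e-04). The direct difference of 0.31 ± 0.09 (adjusted p = 0.026) did not pass without replicate 1 (0.32, adjusted p = 0.0583) or 3 (0.22, adjusted p = 0.111) of the circSlc45a4 knockdown or replicate 2 of the Slc45a4 mRNA knockdown (0.26, adjusted p = 0.0865), or with upper-quartile scaling (0.25, adjusted p = 0.0597). Nor did it pass with only the 6 libraries compared (0.30, adjusted p = 0.0546). The more abundant guardians Mcl1, Bcl2l1 and Bcl2l2 were not called by edgeR's quasi-likelihood test. Mcl1 stood at 193 to 199 CPM in scramble and 216 to 242 CPM in the circSlc45a4 knockdown, without overlap, with a log2 fold change of 0.21 (adjusted p = 0.0719). That passed with the 6 libraries compared (0.21, adjusted p = 0.0419) and without replicate 1 of the Slc45a4 mRNA knockdown (0.21, adjusted p = 0.0473). The direct difference of 0.23 (adjusted p = 0.0528) passed with the DESeq2 Wald test (0.24, adjusted p = 0.0273), limma-voom (0.23, adjusted p = 0.0437), the size factors of DESeq2 (0.24, adjusted p = 0.0473), the Xist term (0.28, adjusted p = 0.0224) and without replicate 3 of the Slc45a4 mRNA knockdown (0.31, adjusted p = 0.022).

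Among the core genes that promote death, the multidomain effectors Bak1 and Bok were higher in both knockdowns. Bak1 (ENSMUSG00000057789.13, chromosome 17, positions 27019810 to 27029009, minus strand), which forms pores in the outer mitochondrial membrane, stood at 5.26, 4.12 and 4.20 CPM in scramble, 12.3, 15.52 and 10.8 CPM in the circSlc45a4 knockdown and 13.1, 11.7 and 8.95 CPM in the Slc45a4 mRNA knockdown. Every knockdown library lay above every scramble library. Bak1 rose by 1.51 ± 0.19 (2.85-fold, adjusted p = 7.44e-05) and by 1.32 ± 0.19 (2.50-fold, adjusted p = 4.17e-04), and the direct difference of 0.19 had a 95% interval from -0.19 to 0.57. The exons of Ggnbp1 on the opposite strand cover 25.5% of the exon bases of Bak1. Bok, a Bax relative, stood at 17.7, 17.2 and 16.5 CPM in scramble, 24.0, 24.0 and 21.9 CPM in the circSlc45a4 knockdown and 22.3, 30.1 and 27.4 CPM in the Slc45a4 mRNA knockdown. Here too no scramble library reached a knockdown library. It rose by 0.44 ± 0.12 (adjusted p = 0.0135) and by 0.63 ± 0.12 (adjusted p = 0.00253). The first of these did not pass without replicate 1 (0.42, adjusted p = 0.0529) or 2 (0.42, adjusted p = 0.0508) of the circSlc45a4 knockdown, without scramble replicate 3 (0.41, adjusted p = 0.0518) or with the Xist term (0.53, adjusted p = 0.156).

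Bid, the BH3-only protein that links death receptors to mitochondria, stood at 12.4, 14.0 and 11.5 CPM in scramble, 8.59, 9.68 and 8.09 CPM in the circSlc45a4 knockdown and 8.99, 13.03 and 9.14 CPM in the Slc45a4 mRNA knockdown. The circSlc45a4 knockdown lay below scramble, where Bid fell by 0.52 ± 0.16 (adjusted p = 0.0288). The call ended without replicate 1 (-0.51, adjusted p = 0.0802) or 3 (-0.47, adjusted p = 0.0901) of the circSlc45a4 knockdown, with the Xist term (-0.71, adjusted p = 0.169), and without replicate 1 (-0.53, adjusted p = 0.0544) or 2 (-0.44, adjusted p = 0.127) of scramble. Bcl2l13 on the opposite strand shares 17.7% of the exon bases of Bid. Of the caspases among the members (Casp2, Casp8 and Casp9), Casp9, the initiator activated on Apaf1, was called. It stood at 43.7, 44.0 and 38.7 CPM in scramble, 42.0, 40.0 and 40.8 CPM in the circSlc45a4 knockdown and 32.8, 34.0 and 31.4 CPM in the Slc45a4 mRNA knockdown. The Slc45a4 mRNA knockdown lay below both other groups, with a fall of 0.36 ± 0.09 against scramble (adjusted p = 0.0117) that did not pass without scramble replicate 2 (-0.33, adjusted p = 0.0666) or with the Xist term (-0.43, adjusted p = 0.104). The direct difference was 0.32 ± 0.09 (adjusted p = 0.0153), and it did not pass without replicate 1 of the circSlc45a4 knockdown (0.31, adjusted p = 0.0512) or replicate 3 of the Slc45a4 mRNA knockdown (0.30, adjusted p = 0.0537). Casp2 and Casp8 had log2 fold changes between -0.21 and 0.02 against scramble, with overlapping groups.

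Diablo, which releases caspases from Xiap, stood at 59.6, 57.3 and 59.8 CPM in scramble, 63.5, 60.3 and 55.8 CPM in the circSlc45a4 knockdown and 50.01, 44.8 and 49.5 CPM in the Slc45a4 mRNA knockdown. As with Casp9, the Slc45a4 mRNA knockdown was the low group. The fall of 0.29 ± 0.08 against scramble (adjusted p = 0.0266) did not pass without replicate 2 (-0.25, adjusted p = 0.0865) or 3 (-0.31, adjusted p = 0.0506) of that knockdown, without scramble replicate 1, 2 or 3 (-0.29, -0.31 and -0.28, adjusted p = 0.0693, 0.0688 and 0.0829) or with the Xist term (-0.26, adjusted p = 0.322). The direct difference was 0.32 ± 0.08 (adjusted p = 0.0128, and 0.0555 without replicate 1 of the circSlc45a4 knockdown, where it was 0.28). Exons of B3gnt4 on the opposite strand and of Gm49027 on the same strand overlap 21.5% and 19.3% of the exon bases of Diablo. Bad, Bcl2l11 and Aifm1 were not called by edgeR's quasi-likelihood test. Aifm1, a mitochondrial flavoprotein encoded on the X chromosome, was lower in all libraries of the circSlc45a4 knockdown than in scramble (-0.25, adjusted p = 0.0531), and it passed with the DESeq2 Wald test (-0.24, adjusted p = 0.0376), with upper-quartile scaling (-0.30, adjusted p = 0.022), with a filter on 1 CPM (-0.25, adjusted p = 0.0417), with the 6 libraries compared (-0.25, adjusted p = 0.0338) and without replicate 1 of the Slc45a4 mRNA knockdown (-0.24, adjusted p = 0.0344). The direct difference of -0.20 (adjusted p = 0.108) passed with upper-quartile scaling (-0.26, adjusted p = 0.0461).

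Set against each other, the p53 targets and the core apoptosis genes showed no common direction in either knockdown. In the circSlc45a4 knockdown 2 of the 22 measured p53 targets were higher and 3 lower, with a median log2 fold change of -0.07, and of the 15 core apoptosis genes 3 were higher and 2 lower, with a median of 0.02. Over all genes 14.1% were higher and 13% lower. Both medians were near 0, and leaving out 1 library turned them: the first was 0.04 without replicate 3 of the circSlc45a4 knockdown and the second -0.02 without its replicate 1. Upper-quartile scaling also turned the second, to -0.03. In the Slc45a4 mRNA knockdown 5 targets were higher and 3 lower (median 0.19), and 3 core genes were higher and 3 lower (median -0.09), where 8.92% of all genes were higher and 9.09% lower. The medians over all genes tested were -0.01 and 0.01. In the direct comparison 7 targets were lower and 3 higher in the circSlc45a4 knockdown (median -0.16), while 4 core genes were higher and 0 lower (median 0.19), against a median of -0.02 over all genes, of which 13.8% were higher and 12.3% lower. The 4 core genes were Bcl2, Xiap, Casp9 and Diablo, and they include inhibitors as well as promoters of apoptosis. Without replicate 1 of the circSlc45a4 knockdown, 9 members passed in the direct comparison in place of 14 (4 higher, 5 lower), with 16.8% of all genes in place of 26.1%, and the median of the core genes was 0.18. Without replicate 1 of the Slc45a4 mRNA knockdown 11 members passed, with 21.7% of all genes, and that median was 0.14. The median of the p53 targets was -0.08 without that library and -0.30 without replicate 2 of the same knockdown. With replicate 1 of both knockdowns left out, an alternative chosen after seeing the data, 8 members passed (5 higher, 3 lower, with 15.9% of all genes) and the median of the core genes was 0.12.

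**Figure D4:**
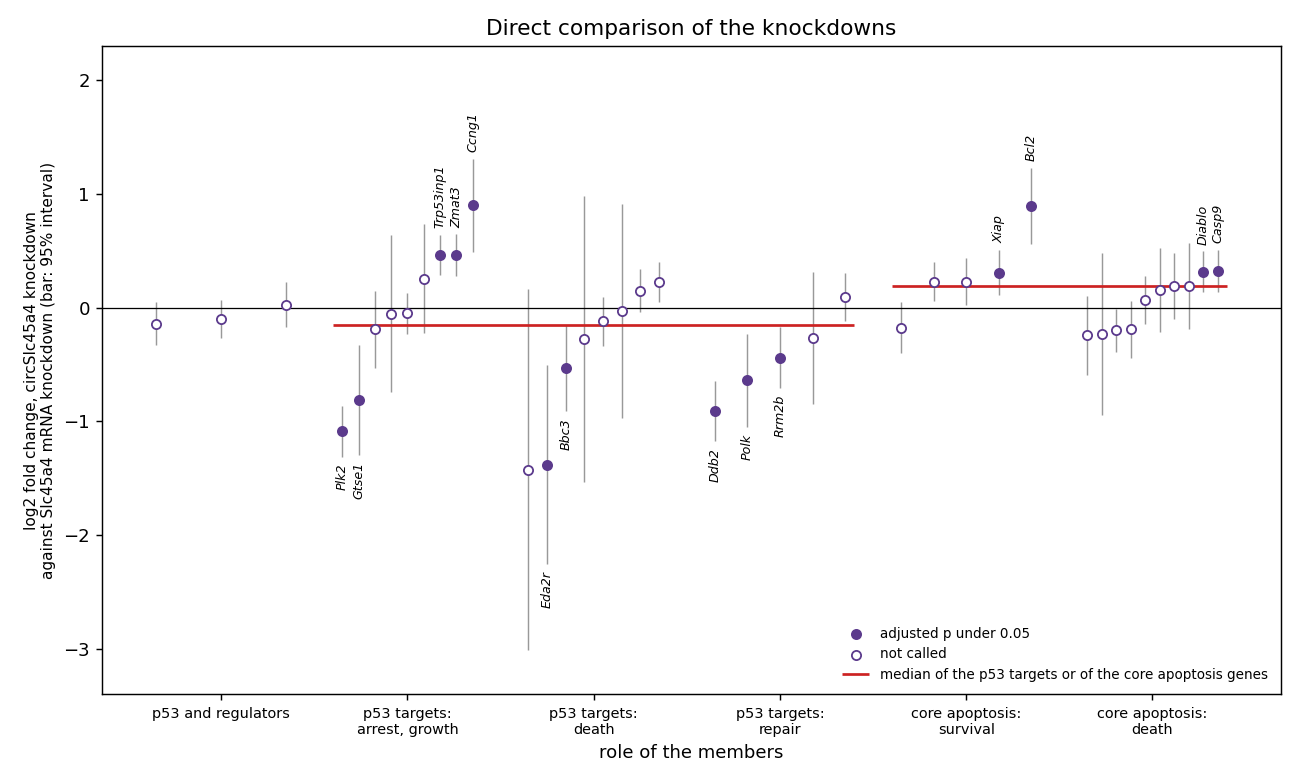
Log2 fold change of each measured member in the circSlc45a4 knockdown against the Slc45a4 mRNA knockdown, by role, with 95% intervals, filled points for adjusted p under 0.05 and red lines at the medians. The 7 lower calls were all p53 targets, and the 7 higher calls were 3 p53 targets and 4 core apoptosis genes. The red lines stand at -0.16 for all 22 measured p53 targets and at 0.19 for all 15 core apoptosis genes.

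Other genes of the pathway were taken from lists of p53 regulators, p53 targets and apoptosis genes outside the 41, and are read against the 27.1% and 18% of all genes called in the comparisons of the circSlc45a4 and Slc45a4 mRNA knockdowns with scramble. Of 9 measured regulators, 1 was higher and 0 lower in the circSlc45a4 knockdown, and 2 were higher and 1 lower in the Slc45a4 mRNA knockdown (11.1% and 33.3% called). Atm, the kinase that signals DNA double-strand breaks to p53, stood at 56.8, 53.6 and 62.3 CPM in scramble, 45.6, 41.7 and 55.0 CPM in the circSlc45a4 knockdown and 96.1, 86.5 and 105 CPM in the Slc45a4 mRNA knockdown, where all libraries were higher than elsewhere (0.73 ± 0.11, adjusted p = 6.07e-04, and a direct difference of -1.01 ± 0.11, adjusted p = 4.11e-05). Chek2, a checkpoint kinase downstream of Atm, was also higher there, at 20.1, 13.6 and 12.5 CPM against 7.70, 9.04 and 11.7 CPM in scramble (0.70 ± 0.19, adjusted p = 0.0247). That call ended without replicate 1 of the Slc45a4 mRNA knockdown (0.46), without scramble replicate 1 (0.57) or 2 (0.66), with the Xist term (0.39), with the replicate block (0.69) and without both libraries of high interferon level (0.46), while its direct difference was -1.17 ± 0.19 (adjusted p = 8.27e-04). Rchy1, a ubiquitin ligase of p53, was lower in the Slc45a4 mRNA knockdown (-0.27 ± 0.08, adjusted p = 0.0259), a call that ended without replicate 2 or 3 of that knockdown (-0.24 and -0.29) or without replicate 1, 2 or 3 of scramble (-0.28, -0.28 and -0.26), with no filter (-0.27) or with the Xist term (-0.24). Usp7, which removes ubiquitin from p53 and Mdm2, was the regulator that was higher in the circSlc45a4 knockdown (0.25 ± 0.08, adjusted p = 0.032). It did not pass without replicate 1 or 3 of that knockdown (0.26 and 0.19) or without replicate 1, 2 or 3 of scramble (0.25, 0.25 and 0.27), with upper-quartile scaling (0.20) or with the Xist term (0.34).

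Of 12 further p53 targets, the circSlc45a4 knockdown had 1 higher and 1 lower, and the Slc45a4 mRNA knockdown 4 higher and 1 lower (16.7% and 41.7% called, median log2 fold changes 0.01 and 0.38). Ei24, an endoplasmic reticulum protein induced by p53, was higher in both, at 98.0, 102 and 98.7 CPM and at 93.8, 85.5 and 84.6 CPM against 63.8, 61.5 and 66.5 CPM in scramble (0.64 ± 0.07, adjusted p = 4.48e-05, and 0.46 ± 0.07, adjusted p = 9.88e-04). The second did not pass with the Xist term (0.40, adjusted p = 0.0686). Btg2, an antiproliferative p53 target that also marks neurogenic progenitors, fell by 0.80 ± 0.12 in the Slc45a4 mRNA knockdown (adjusted p = 7.05e-04), to 164, 137 and 145 CPM from 219.6, 269 and 290.4 CPM in scramble. In the circSlc45a4 knockdown it overlapped scramble (-0.05 ± 0.12, adjusted p = 0.811). Psrc1, a microtubule-associated protein of mitosis, rose by 1.02 ± 0.24 in the Slc45a4 mRNA knockdown (adjusted p = 0.0115), a call that ended without scramble replicate 2 (0.96), with the Xist term (0.61) and without both libraries of high interferon level (0.68). Cdkn1a rose by 1.39 in the Slc45a4 mRNA knockdown by edgeR's quasi-likelihood test (adjusted p = 0.022), a call lost in 7 of 19 alternatives. Among these were limma-voom (1.20, adjusted p = 0.0803), the Xist term (0.43, adjusted p = 0.701) and the fit without replicate 1 of that knockdown (0.75, adjusted p = 0.09). In the circSlc45a4 knockdown Cdkn1a was not called, and it passed with no filter (0.79, adjusted p = 0.001). Pidd1, the scaffold of the complex that activates Casp2, fell by 0.59 ± 0.21 in the circSlc45a4 knockdown (adjusted p = 0.0481), and leaving out replicate 2 or 3 of any group ended that call (-0.59 to -0.44), as did the replicate block (-0.62, adjusted p = 0.0778) and the Xist term (-0.84, adjusted p = 0.201).

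The circSlc45a4 knockdown had 4 of 19 further apoptosis genes higher and 4 lower, and the Slc45a4 mRNA knockdown 3 higher and 1 lower (42.1% and 21.1% called, medians -0.02 and -0.02). Hrk, a BH3-only protein of neurons, fell to 1.90, 1.80 and 1.34 CPM in the circSlc45a4 knockdown from 4.97, 5.02 and 4.91 CPM in scramble (-1.56 ± 0.21, adjusted p = 1.27e-04). In the Slc45a4 mRNA knockdown it stood at 3.96, 3.24 and 4.18 CPM (-0.39 ± 0.20, adjusted p = 0.199), and the direct difference was -1.17 ± 0.21 (adjusted p = 0.0012). Dffa, the inhibitor of the apoptotic DNase, was higher in the circSlc45a4 knockdown (0.62 ± 0.11, adjusted p = 8.33e-04). Tradd, an adaptor of death receptors, was lower there (-0.96 ± 0.20, adjusted p = 0.00365). With the Xist term neither Dffa nor Tradd passed in that knockdown (0.58 and -0.91, adjusted p = 0.0933 and 0.174). Tradd was also lower in the Slc45a4 mRNA knockdown (-0.70, adjusted p = 0.0294), a call lost in 6 of 19 alternatives. Birc5, an inhibitor of apoptosis protein that acts in mitosis, was higher in the Slc45a4 mRNA knockdown, at 44.9, 29.7 and 27.0 CPM against 12.3, 16.3 and 21.3 CPM in scramble (1.02 ± 0.21, adjusted p = 0.0047, and 0.69 with the Xist term, which did not pass). Of the 15 G2 and M phase genes, 3 were higher in that comparison (median 0.46), and their part in the Birc5 value was not tested.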

How the data were processed

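Whole read counts per gene, without normalization, were deposited by the authors for 53379 gene IDs in 9 libraries. Per the submitters' processing notes, the tools were STAR 2.4.2a, bcl2fastq 2.17.1.14 and DESeq2 on build mm10, with no role or order stated. For annotation release, counting program and strand setting, each is not given in the sources used here. IDs were joined without version suffix to GENCODE M21 (GRCm38, the assembly of mm10), which gave a symbol for 53274.

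Groups follow the sample titles. Genes were kept by filterByExpr (minimum count 10), which left 17760, and totals were scaled by TMM. edgeR 4.0.16 (R 4.3.3) fitted its quasi-likelihood model, with a mean for each group, to all 9 libraries (6 residual degrees of freedom) and tested the 3 pairs of groups, with Benjamini-Hochberg adjustment over all genes and a threshold of 0.05. Standard errors were derived from the F statistic, as the size of the log2 change over the root of F, and intervals are 95% intervals. A floor of 3 counts covers counting error only, since reads carry no molecular identifiers. The fit was tested on simulated counts. These held no differences of sex or interferon level between libraries, so the test does not bear on such differences. The members, lists, comparisons and alternatives were chosen with earlier results of these data known. Per-library values are given for members called in any comparison and for Trp53 and Mdm2, and at most 4 genes of each other pathway list and comparison are named, from those with the smallest p. Not every gene of these lists is reported here. Alternatives were other scalings, other filters, DESeq2 1.42.0, limma-voom (limma 3.58.1), the 6 libraries compared, a replicate block, the level of Xist as a covariate, and leaving out each library. No pair of replicate libraries agreed within counting noise.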

Additional observations from a re-analysis of the deposited data

Results flagged for a closer look

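Plk2 moved in opposite directions in the knockdowns: every library of the circSlc45a4 knockdown was lower than every scramble library and every library of the Slc45a4 mRNA knockdown was higher. The difference between the knockdowns was itself tested with edgeR's quasi-likelihood test and was -1.09 on the log2 scale (SE 0.10, adjusted p = 1.48e-05), and it passed in all 19 alternatives. Groups of 3 libraries are too small for a search for single libraries that stand apart.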

How the results depend on the processing

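No called member changed sign in any of 19 alternatives. In the 3 comparisons 6, 4 and 4 members that were not called passed in at least 1 alternative. Of the 38 calls of members over the 3 comparisons, 17 passed in all 19 alternatives and 21 were lost in at least 1. Those that passed throughout were Zmat3, Apaf1, Bcl2 and Bak1 in the circSlc45a4 knockdown, Ccng1, Plk2, Aen, Apaf1, Xiap, Bak1 and Bok in the Slc45a4 mRNA knockdown, and Ccng1, Plk2, Zmat3, Trp53inp1, Ddb2 and Bcl2 in the direct comparison. With the Xist level as a covariate the count of members fell from 10 to 4 in the circSlc45a4 knockdown and from 14 to 7 in the Slc45a4 mRNA knockdown. Xist differs between the groups, so that fit has wider errors, and the cause of each loss was not tested. Leaving out 1 library at a time gave 8 to 12, 10 to 14 and 9 to 14 members in the 3 comparisons, the lowest of the direct comparison without replicate 1 of the circSlc45a4 knockdown. Leaving out both libraries with the highest interferon level, chosen after seeing the data, gave 8 members in the direct comparison. The calls it ended there were Gtse1, Eda2r, Bbc3, Polk, Rrm2b, Xiap and Casp9, while Pmaip1 passed. Against scramble it ended those of Polk in the Slc45a4 mRNA knockdown and Bid in the circSlc45a4 knockdown. With only the 6 libraries compared, Bbc3 and Xiap did not pass in the direct comparison. The median log2 fold change of the core apoptosis genes there, 0.19, was 0.13 with upper-quartile scaling, 0.14 to 0.19 without 1 library at a time, and 0.12 without both libraries of high interferon level; the cause was not tested. Replicate numbers did not pair the libraries: deviations of same-numbered libraries correlated at -0.14 to 0.12, 1 of 9 of these correlations was over 0.1, and 8 of 18 library and group pairs matched their own number best. Between the knockdowns the same-number correlations were 0.0828, 0.0815 and 0.115, and there each library correlated best with its own number, a hint from the data and not from the design. With the replicate number as a block, the counts of members were 10, 14 and 14, the same as without it. At this depth Fas was too low to be tested, and Pmaip1, at 0.0224 to 1.20 CPM, had wide intervals.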
